A study of Homo sapiens with 24 samples.

Results

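The nuclear genes of the respiratory chain and of ATP synthase were followed in SKBR3 cells, a HER2-positive breast cancer line that makes much of its own fatty acid, across 8 groups of 3 RNA-seq libraries. The genes were chosen by name: every protein-coding row of the count table whose symbol starts with NDUFA, NDUFB, NDUFC, NDUFS, NDUFV, SDH, UQCR, COX4, COX5, COX6, COX7, COX8 or ATP5, leaving out the NDUFAF and SDHAF assembly factors and pseudogenes. The rule found 83 of the 14493 genes in the table, of which 38 belong to complex I, 4 to complex II, 9 to complex III, 13 to complex IV and 19 to ATP synthase, and all 83 passed the filter on low counts in each comparison. Untreated SKBR3 cells were collected at day 0, as the proliferative control, and at day 7, to account for cells that turn quiescent as nutrients run down. Cells of 6 further groups were collected at day 7 after a drug that was refreshed at day 3: 250 nmol/L ND-646, an inhibitor of acetyl-CoA carboxylase (ACC), 250 nmol/L TVB-3166, an inhibitor of fatty acid synthase (FASN), 10 µmol/L bleomycin, 10 nmol/L doxorubicin, 1 µmol/L palbociclib or 500 nmol/L alisertib. The last 4 are inducers of therapy-induced senescence (TIS) that damage DNA (bleomycin and doxorubicin), block CDK4/6 (palbociclib) or block Aurora A kinase (alisertib). The labels give a refeed at day 3 for each drug group and name none for untreated day-7 cells. Drug and refeeding therefore cannot be told apart in the comparisons with untreated day-7 cells. All groups are 1 line at 1 dose per drug, and the labels do not say whether the replicates were separate cultures, so each p-value measures the spread between these libraries, which may be technical.

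Complexes I to IV pass electrons from NADH and succinate to oxygen and, except for complex II, pump protons across the inner mitochondrial membrane, and ATP synthase uses the proton gradient to make ATP. Mitochondrial DNA codes for a few subunits at the core of complexes I, III, IV and ATP synthase, while all the others, and the whole of complex II, are coded in the nucleus, made by cytosolic ribosomes and imported. Senescent cells are known for a mitochondrial mass and respiration that differ from those of dividing cells, and messenger RNA levels alone do not give the amount or activity of a complex.

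Promoters of many of these genes carry sites for the factors NRF1, of the ETS family (GABPA) and YY1. The letters GCATGCGC (NRF1), CCGGAAG (ETS), AAGATGGC (YY1) and CACGTG (an E-box, a site of MYC among others) were searched on both strands from 250 bases before to 50 bases after the gene start in the RefSeq promoter table for GRCh38.p14, which held 69 of the 83 members and 10148 protein-coding genes of the table. The NRF1 letters were present in 14 members, 20.3% against 6.57% of all those promoters, the ETS letters in 21, 30.4% against 22.8%, the YY1 letters in 12, 17.4% against 6.62%, and the E-box in 7, 10.1% against 12.9%. At least 1 of the first 3 was found in 37 members, 53.6% against 32.0%. A match is a run of letters and not a bound site. The 120 bases before the start follow for 5 members whose transcripts are described further on. Each window holds a match, in capitals, and overlaps no other gene. COX7A2L and UQCRC2 come last, chosen because their levels departed from those of the other members. Their windows hold none of the 4 runs, which was common, since only 37 of 69 members held 1 of the first 3. ATP5MC2, whose levels also departed, held the NRF1 letters, and a relation of runs to levels was not tested. The windows take RefSeq starts in GRCh38, which can differ from the gene ends printed further on from a GRCh37 annotation. All are 5′ to 3′ on the strand of the gene.
ATP5ME, chr4:674277-674396, minus strand, NRF1: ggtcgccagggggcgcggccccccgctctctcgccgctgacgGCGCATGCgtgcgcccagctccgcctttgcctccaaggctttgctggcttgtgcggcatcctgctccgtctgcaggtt
ATP5F1C, chr10:7788057-7788176, plus strand, NRF1 on both strands, overlapping: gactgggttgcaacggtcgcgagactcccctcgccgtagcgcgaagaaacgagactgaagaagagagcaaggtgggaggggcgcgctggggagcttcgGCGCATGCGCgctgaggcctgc
NDUFS7, chr19:1383787-1383906, plus strand, NRF1: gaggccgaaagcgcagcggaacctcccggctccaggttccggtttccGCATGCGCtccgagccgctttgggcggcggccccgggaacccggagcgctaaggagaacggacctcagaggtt
COX8A, chr11:63974500-63974619, plus strand, ETS: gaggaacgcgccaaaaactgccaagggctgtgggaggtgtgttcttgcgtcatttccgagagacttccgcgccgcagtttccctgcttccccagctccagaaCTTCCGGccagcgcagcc
COX6B1, chr19:35648203-35648322, plus strand, ETS: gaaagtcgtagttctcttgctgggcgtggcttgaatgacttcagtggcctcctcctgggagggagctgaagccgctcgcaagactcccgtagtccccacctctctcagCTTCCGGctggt
COX7A2L, chr2:42368958-42369077, minus strand, none of the runs: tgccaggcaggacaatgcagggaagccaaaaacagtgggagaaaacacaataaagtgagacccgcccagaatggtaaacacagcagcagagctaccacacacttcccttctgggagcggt
UQCRC2, chr16:21953241-21953360, plus strand, none of the runs: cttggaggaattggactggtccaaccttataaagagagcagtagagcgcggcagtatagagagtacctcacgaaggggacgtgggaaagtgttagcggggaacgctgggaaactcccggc

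The libraries held 29405121 to 44316330 counts each. ERBB2, the HER2 gene that is amplified in SKBR3 cells, lay between 5121 and 8827 CPM (counts scaled to a fixed library size after TMM, so that libraries of unequal depth can be compared) in the 24 libraries and was called in none of the comparisons with day 0. Of 6 luminal HER2 markers, the keratins KRT8, KRT18 and KRT19 were lower with TVB-3166, bleomycin, doxorubicin, palbociclib and alisertib, from -0.37 (KRT18, palbociclib) to -1.49 (KRT19, bleomycin) on the log2 scale, KRT8 and KRT19 were lower with ND-646, and GRB7 was higher with TVB-3166 (0.62). Their part in the members' values was not tested. Of 8 marker genes of other cells only COL1A1 (6.43 to 15.3 CPM) and ACTA1 (0.381 to 13.2 CPM) were in the table. ND-646 replicate 1 stood apart from the other ND-646 libraries, with a median difference of the 83 members from the day-0 mean of 0.30 on the log2 scale against -0.65 in replicate 2 and -0.70 in replicate 3. Cytosolic ribosomal protein transcripts moved with it, with a median difference of 1.11 in that library against 0.07 and -0.02, and its TMM factor of 0.791 was the lowest of the 24. The main counts and calls that rest on ND-646 are therefore also given without this library, and the part of the ribosomal transcripts in it was not tested. In day-0 replicate 1, transcripts of mitochondrial DNA took 8.75% of the counts against 1.37% and 1.69% in the other day-0 libraries. In bulk RNA, fewer cells of a type and less RNA per cell cannot be told apart.

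**Figure D1:**
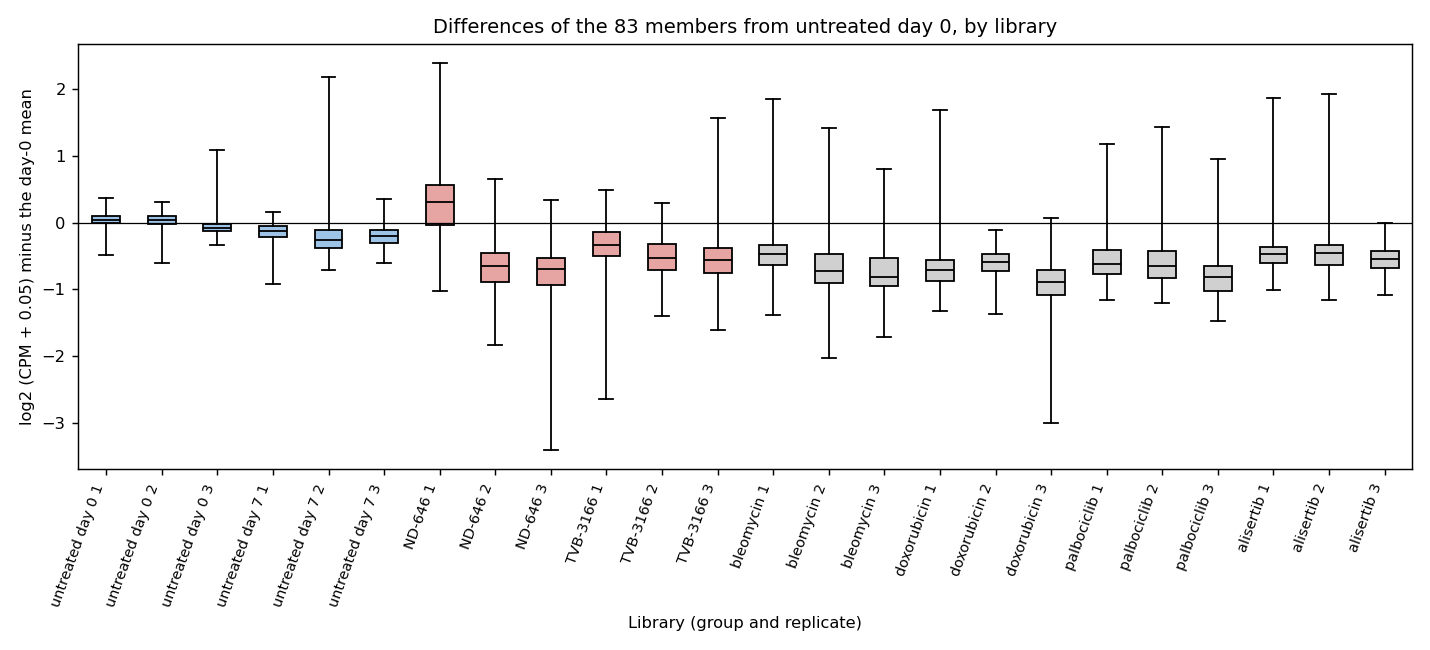
Differences of the 83 members from the day-0 mean in each of the 24 libraries, as log2(CPM + 0.05), with boxes for the quartiles, a line for the median and whiskers to the lowest and highest member (blue, untreated; red, ND-646 and TVB-3166; grey, the 4 other inducers). The median is below 0 in 17 of the 18 libraries of treated cells, from -0.90 to -0.34, and at 0.30 in ND-646 replicate 1.

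The 83 members took a smaller share of each library in treated than in untreated day-0 cells. The share of all counts that fell on the 83 genes was 1.31%, 1.44% and 1.40% in the day-0 libraries, a mean of 1.38% ± 0.065 (SD, n = 3), and 1.32% ± 0.024 in untreated day-7 cells. It was 1.00% ± 0.062 with TVB-3166, 0.893% ± 0.054 with bleomycin, 0.926% ± 0.056 with doxorubicin, 0.965% ± 0.058 with palbociclib and 1.08% ± 0.029 with alisertib, each n = 3 and each with all libraries below the lowest day-0 library. In ND-646-treated cells the share was 1.22%, 0.847% and 0.797%, so the first library lay closest to the untreated ones and the others were the lowest of the 24. The group means were 21.7% (alisertib) to 35.5% (bleomycin) below day 0 in treated cells, each at an exact two-sided permutation p of 0.1, the smallest that 3 against 3 libraries can give, and 4.84% below in untreated day-7 cells (exact permutation p = 0.3).

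**Figure D2:**
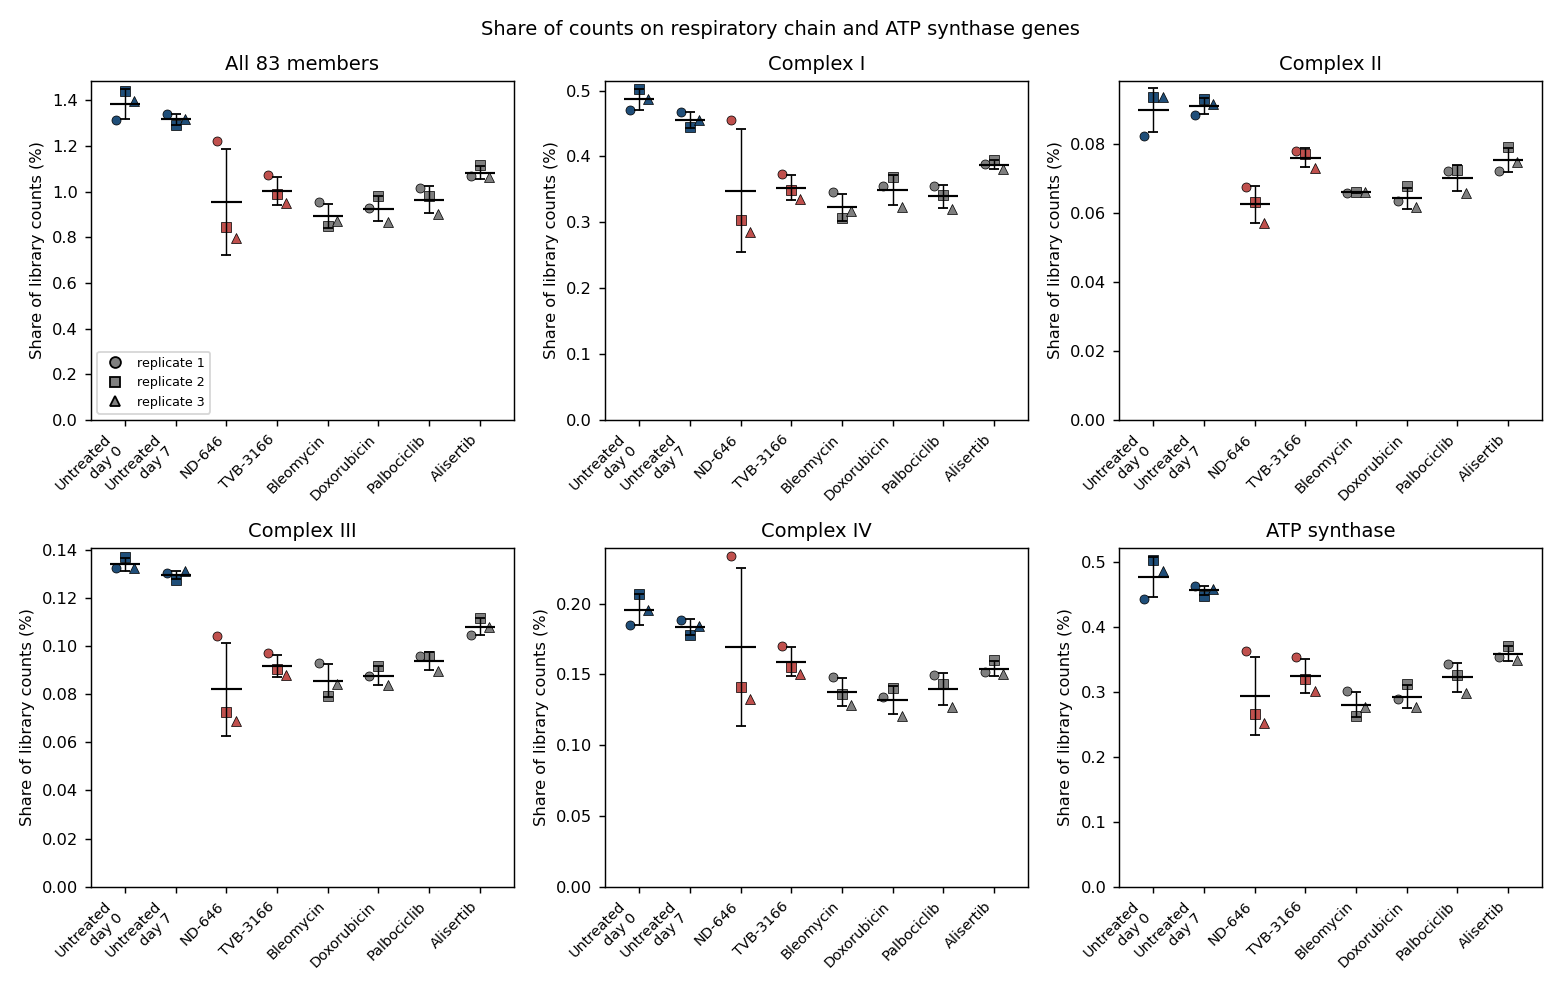
Percent of each library's counts on all 83 members and on each complex, by group; points are libraries (circle, replicate 1; square, replicate 2; triangle, replicate 3), the line is the mean and the bar 1 SD. All libraries of TVB-3166, bleomycin, doxorubicin, palbociclib and alisertib lie below the day-0 libraries in each panel, and ND-646 replicate 1 lies above the other ND-646 libraries.

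Called genes are those with an adjusted p under 0.05 in edgeR's quasi-likelihood test across all genes (Benjamini-Hochberg), and fold changes are relative to the median gene, which lay between -0.01 and 0.02 on the log2 scale in the edgeR fits with TMM and all libraries. Compared with untreated day-0 cells, 60 of 83 members were lower and 0 higher in TVB-3166-treated cells, where 27.7% of all genes tested were lower and 27.4% higher, with a median log2 fold change of -0.48. In bleomycin-treated cells 70 were lower and 2 higher (25.3% and 24.1% of all genes), with a median of -0.67. In doxorubicin-treated cells 78 were lower and 0 higher (24.8% and 23.7%), with a median of -0.74. In palbociclib-treated cells 73 were lower and 1 higher (27.2% and 26% of all genes), with a median of -0.68. In alisertib-treated cells 72 were lower and 0 higher (19.6% and 17.7%), with a median of -0.50. These medians are falls of 1.40-fold (TVB-3166), 1.59-fold (bleomycin), 1.66-fold (doxorubicin), 1.60-fold (palbociclib) and 1.42-fold (alisertib).

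Few members fell by 2-fold or more. With an adjusted p under 0.05 as well, 4 did so with ND-646 (8.95% of all genes tested; 12 and 10.1% without replicate 1), 2 with TVB-3166 (6.69%), 7 with bleomycin (7.19%), 9 with doxorubicin (2.85%), 9 with palbociclib (6.09%) and 2 with alisertib (1.38%). With an unadjusted p under 0.05, the threshold of the study, the same numbers of members were lower, where 9.29%, 6.75%, 7.3%, 2.9%, 6.15% and 1.44% of all genes were lower in that order and 11.4%, 10.9%, 11.5%, 10%, 10.5% and 6.47% were higher. On either rule 1 member rose by 2-fold or more in bleomycin- and none in doxorubicin- or palbociclib-treated cells, where 11.1%, 9.67% and 10.4% of all genes rose with an adjusted p under 0.05. With alisertib 0 members rose by the adjusted p (6.06% of all genes) and 1 by the unadjusted p, the readthrough gene ATP5MF-PTCD1. In untreated day-7 cells 0 members passed either rule (0.169% of all genes rose and 0.0293% fell by the adjusted, and 1.66% and 0.33% by the unadjusted p). The treated and day-0 libraries were fully apart for 65 members with TVB-3166, 77 with bleomycin, 78 with doxorubicin, 74 with palbociclib, 75 with alisertib and 18 with ND-646, against 62.6%, 59.5%, 58.5%, 62.3%, 50.6% and 51.7% of all genes (76 members and 72.3% of all genes with ND-646 without replicate 1), and for 43 in untreated day-7 cells, against 29.6%.

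In ND-646-treated cells 10 of 83 members were lower and 1 higher than at day 0, where 18.8% of all genes were lower and 19.1% higher, with a median log2 fold change of -0.31. Without replicate 1, 72 were lower and 1 higher (27.8% and 27.1% of all genes), with a median of -0.67. The number called in ND-646-treated cells is thus set by 1 library.

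Untreated cells at day 7 had 0 members called higher or lower against day 0 by edgeR, where 0.389% and 0.198% of all genes were called, and 33 members, all lower, had an unadjusted p under 0.05 (11.7% of all genes were lower and 12.2% higher on that rule). DESeq2 called 13 members, all lower (4.58% of all genes lower and 4.31% higher), and edgeR with the replicate number as a block called 12, all lower (4.03% and 5.23%). The median log2 fold change was -0.19, and 75 of 83 were below 0. Taken against untreated day-7 in place of day-0 cells, 38 members were lower and 1 higher with TVB-3166 (26.1% and 25.4% of all genes), 57 and 1 with bleomycin (23.2% and 22.4%), 75 and 0 with doxorubicin (21.5% and 21.9%), 69 and 0 with palbociclib (22.9% and 22%), 47 and 0 with alisertib (9.49% and 9.55%) and 6 and 1 with ND-646 (17.1% and 17.2%). The replicate numbers paired untreated day 7 with bleomycin, doxorubicin and alisertib, and with the replicate block 61, 76 and 61 members were lower there. The share of all genes called with that block was not computed.

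The comparisons with day 0 share the same 3 control libraries, so their calls are given side by side and not as separate evidence. Of the 83 members, 62 were lower with bleomycin, doxorubicin, palbociclib and alisertib alike, as were 12.7% of the genes tested in all 4 comparisons. Lower with all 6 drugs, with all ND-646 libraries in the fit, were 9 members against 7.79% of the genes tested in all 6, named here after their values were seen: ATP5F1A, ATP5F1B, ATP5MC1, ATP5MC3, ATP5PF, NDUFA6, NDUFA9, NDUFB6 and UQCRC1. Lower with none were 4, NDUFV3, COX7B2 and the readthrough genes NDUFC2-KCTD14 and ATP5MF-PTCD1. NDUFV3, an accessory subunit of the NADH-binding tip of complex I, held 39.5, 50.6 and 47.6 CPM at day 0 and 35.2 to 56.3 CPM in the 18 treated libraries.

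Complex I takes electrons from NADH. Of its 38 members 27 were lower with TVB-3166, 34 with bleomycin, 35 with doxorubicin, 34 with palbociclib, 30 with alisertib and 3 with ND-646 (34 without ND-646 replicate 1), and none was higher. Both classes of subunit took part: of the 7 core subunits, which together carry the flavin and the iron-sulfur clusters, 5, 7, 6, 6 and 4 were lower with TVB-3166, bleomycin, doxorubicin, palbociclib and alisertib, and of the 30 accessory subunits 22, 27, 29, 28 and 26. The median log2 fold change was nearer 0 for the core than for the accessory subunits in each of these groups, from -0.59 to -0.30 against -0.76 to -0.53, a difference that was not tested. The core subunit NDUFS7 fell by 1.05 on the log2 scale with doxorubicin (adjusted p = 0.00157) and by 1.00 with palbociclib (adjusted p = 9.77e-05).

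NDUFS6, a zinc-binding accessory subunit of the NADH-binding tip (NCBI gene 4726, GRCh37 chromosome 5, 1801521 to 1816162), held 117, 112 and 97.0 CPM at day 0 and 86.5, 71.3 and 81.7 CPM in untreated day-7 cells. It held 54.7, 47.2 and 51.7 CPM with TVB-3166, 52.9, 61.0 and 41.5 CPM with doxorubicin, 51.9, 50.3 and 40.1 CPM with palbociclib, and 105, 45.9 and 47.8 CPM with ND-646. Only ND-646 replicate 1 reached the range of the untreated libraries. The fall from day 0 was 1.08 ± 0.10 (SE) on the log2 scale with TVB-3166 (edgeR adjusted p = 1.02e-05) and 1.196 ± 0.12 with palbociclib (adjusted p = 2.32e-05), and with ND-646 it passed only without replicate 1, at -1.21.

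NDUFA9, an accessory subunit where the matrix arm meets the membrane arm (NCBI gene 4704, chromosome 12, 4758261 to 4803483), held 207, 179 and 182 CPM at day 0, 128, 79.0 and 76.6 CPM with ND-646 and 109, 96.0 and 95.4 CPM with TVB-3166. All 6 of these treated libraries lay below all day-0 libraries, ND-646 replicate 1 included. The log2 fold change was -1.01 ± 0.21 with ND-646 (adjusted p = 0.00536) and -0.92 ± 0.10 with TVB-3166 (adjusted p = 2.29e-05), and it ran from -0.97 to -0.65 with the other drugs, all called.

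NDUFC1, NDUFA6, NDUFB2, NDUFB6 and NDUFB10, small accessory subunits, each passed a fold change of 2 in at least 1 comparison. NDUFC1 fell from 50.7, 50.6 and 40.8 CPM at day 0 to 21.3, 20.3 and 18.2 CPM with bleomycin, a log2 fold change of -1.24 ± 0.13 (adjusted p = 0.000103). NDUFA6 showed its largest change with palbociclib, at 46.0, 44.3 and 40.7 CPM against 111, 104 and 93.5 CPM, a log2 fold change of -1.23 ± 0.10 (adjusted p = 5.85e-06). In both cases the treated libraries lay below every untreated library, day 7 included.

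Complex II, succinate dehydrogenase, links the tricarboxylic acid (TCA) cycle to the chain and its 4 subunits had median log2 fold changes of -0.58 with doxorubicin, -0.49 with palbociclib, -0.42 with bleomycin, -0.40 with alisertib and with ND-646, and -0.23 with TVB-3166. With the 5 drugs other than ND-646 these medians were nearer 0 than those of the other complexes, a difference that was not tested. SDHA, the flavoprotein subunit, held 373, 385 and 365 CPM at day 0, 328, 319 and 319 CPM in untreated day-7 cells and 220.2, 232 and 205 CPM with palbociclib, a log2 fold change of -0.77 ± 0.09 against day 0 (adjusted p = 5.62e-05). SDHB, the iron-sulfur subunit, was lower with each drug but ND-646, by 0.39 to 0.63 on the log2 scale. The membrane anchors SDHC and SDHD were lower with doxorubicin (-0.49 and -0.52) and alisertib (-0.28 and -0.42) but were not called with TVB-3166 (-0.10, adjusted p = 0.375, and -0.13, adjusted p = 0.279). Of the 4 subunits, 0 were called with ND-646 and all 4 were lower without its replicate 1.

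Complex III passes electrons from coenzyme Q to cytochrome c, and 6 of its 9 members were lower with TVB-3166, 7 with bleomycin, 9 with doxorubicin, 7 with palbociclib, 8 with alisertib and 2 with ND-646 (7 without replicate 1). Its 2 large core proteins, which face the matrix, did not move alike. UQCRC1 was lower with all 6 drugs, at 401, 348 and 304 CPM at day 0 and 179.9, 181 and 169.9 CPM with palbociclib, a log2 fold change of -0.99 ± 0.11 (adjusted p = 4.42e-05).

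UQCRC2 (NCBI gene 7385, chromosome 16, 21964609 to 21994981) held 341, 357 and 375 CPM at day 0, 374, 398 and 405 CPM in untreated day-7 cells, and 178, 178 and 177 CPM with ND-646. The 3 ND-646 libraries were alike for this gene, replicate 1 included, and lay below all others of the 24. TVB-3166 gave 256, 249.8 and 252 CPM, palbociclib 279.8, 303 and 299 CPM, and alisertib 299.8, 346 and 348 CPM. Against day 0 the log2 fold change was -1.02 ± 0.13 with ND-646 (adjusted p = 0.000565) and -0.50 ± 0.09 with TVB-3166 (adjusted p = 0.00074), while with alisertib it was -0.12 and not called (adjusted p = 0.362). The direct comparison of TVB-3166 with ND-646 gave a difference of 0.51 with an interval from 0.276 to 0.751, and an adjusted p over all genes of 0.0709. It passed without ND-646 replicate 1, at 0.51.

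UQCRH, the hinge protein next to cytochrome c1, held 263, 194 and 186 CPM at day 0 and 150.2, 149.6 and 151 CPM in untreated day-7 cells. With alisertib it held 113, 115 and 109 CPM, and with palbociclib 115, 109 and 97.1 CPM. Cells at day 7 without drug were already below day 0, by 0.50 on the log2 scale (adjusted p = 0.0813), and the called falls were 0.67 with TVB-3166, 0.68 with bleomycin, 0.95 with doxorubicin, 1.00 with palbociclib and 0.94 with alisertib. UQCRHL, a copy of UQCRH that may share its reads, held 0.684 to 2.76 CPM across the 24 libraries and its calls are uncertain.

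Complex IV, cytochrome c oxidase, hands electrons to oxygen. Of its 13 members, which include NDUFA4 as the subunit it is now known to be, 8 were lower with TVB-3166 and with bleomycin, 12 with doxorubicin, 11 with palbociclib, 12 with alisertib and 0 with ND-646 (10 without replicate 1). COX8A, the ubiquitous isoform of subunit VIII, held 159.8, 158 and 142 CPM at day 0, 56.0 to 85.4 CPM with doxorubicin, 77.9, 78.4 and 63.1 CPM with palbociclib, and 132, 117 and 119 CPM with TVB-3166. Its log2 fold change was -1.07 ± 0.14 with doxorubicin (adjusted p = 0.000257), -1.07 ± 0.11 with palbociclib (adjusted p = 2.29e-05) and -0.32 ± 0.09 with TVB-3166 (adjusted p = 0.0145). COX6B1, which faces the intermembrane space, fell by 1.02 with doxorubicin, 0.96 with palbociclib and 0.56 with TVB-3166. Of the isoforms found mainly in other tissues, COX7B2 was at 0.786 to 4.25 CPM, and COX4I2, COX6A2, COX6B2, COX7A1, COX8C and NDUFA4L2 were not analysed here.

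COX7A2L, the factor (also called SCAF1) that joins complexes III and IV into a supercomplex, was the complex IV member that was higher (NCBI gene 9167, chromosome 2, 42560686 to 42652228). It held 87.0, 86.6 and 84.8 CPM at day 0, 76.4, 84.5 and 76.4 CPM in untreated day-7 cells, 205, 128 and 109 CPM with ND-646 and 102, 133 and 98.4 CPM with bleomycin. All 6 of these treated libraries lay above all 6 untreated ones. TVB-3166 gave 102, 97.6 and 83.1 CPM, which overlapped day 0, and doxorubicin gave 67.0, 70.5 and 60.6 CPM, which lay below every untreated library. The log2 fold change was 0.77 ± 0.22 with ND-646 (adjusted p = 0.0242; 0.46 without replicate 1, adjusted p = 0.00507), 0.38 ± 0.13 with bleomycin (adjusted p = 0.035), 0.14 with TVB-3166 (adjusted p = 0.26), -0.37 with doxorubicin (adjusted p = 0.00585), -0.34 with alisertib (adjusted p = 0.0225) and -0.08 with palbociclib (adjusted p = 0.457).

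Of the 19 members of ATP synthase, the enzyme that makes ATP, 17 were lower with TVB-3166, 18 with bleomycin, with doxorubicin, with palbociclib and with alisertib, and 5 with ND-646 (17 without replicate 1). All 5 subunits of the catalytic F1 head were lower with each of the 5 drugs other than ND-646, and so were 11 of 12 Fo subunits with TVB-3166 and 12 of 12 with the others. ATP5F1B, the catalytic beta subunit, had one of the highest levels per length of all members at day 0, 1140 CPM per kb of transcript, next to 1840 for NDUFB9 of complex I. It held 1945, 2108 and 1960 CPM at day 0 and 1125, 1215 and 1046 CPM with doxorubicin. ATP5F1C, the gamma subunit of the rotating shaft, named for its promoter above, held 289, 277 and 285 CPM at day 0 and 170.2, 198 and 173 CPM with doxorubicin, a log2 fold change of -0.64 ± 0.09 (adjusted p = 0.000363). ATP5IF1, the inhibitor that stops ATP synthase from running in reverse, held 67.6, 68.3 and 55.9 CPM at day 0 and 36.0, 31.1 and 30.5 CPM with bleomycin, a log2 fold change of -0.97 ± 0.12 (adjusted p = 0.000246), so the transcripts of the inhibitor and of the enzyme were both lower.

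The proton-driven ring of ATP synthase is built from subunit c, for which ATP5MC1, ATP5MC2 and ATP5MC3 code; their mature proteins are identical and their import signals differ. ATP5MC1 (NCBI gene 516, chromosome 17, 46970127 to 46973233) had the largest fall of all 83 members in each comparison of a drug with day 0 but palbociclib and alisertib. It held 65.6, 67.0 and 63.1 CPM at day 0, 55.5, 45.4 and 51.4 CPM in untreated day-7 cells, 32.0, 18.2 and 17.95 CPM with ND-646, 27.6, 24.6 and 23.5 CPM with TVB-3166 and 24.95, 15.9 and 19.8 CPM with bleomycin. All 18 treated libraries lay below all 6 untreated ones. The log2 fold change was -1.53 ± 0.23 with ND-646 (adjusted p = 0.00113; -1.85 without replicate 1), -1.36 ± 0.10 with TVB-3166 (adjusted p = 1.51e-06) and -1.69 ± 0.15 with bleomycin (adjusted p = 5.9e-05), a fall of 2.89-fold, 2.57-fold and 3.22-fold, and it was -1.41, -1.15 and -1.003 with doxorubicin, palbociclib and alisertib. In untreated day-7 cells it was -0.35 (adjusted p = 0.0925).

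ATP5MC3 (NCBI gene 518, chromosome 2, 176040986 to 176046438), the subunit c gene with the most counts at day 0, held 233, 227 and 229.8 CPM there, 153, 96.1 and 94.4 CPM with ND-646, 147, 124 and 115 CPM with TVB-3166 and 108, 85.9 and 95.2 CPM with bleomycin. It too was below the untreated libraries in every treated library, with log2 fold changes from -1.25 (bleomycin) to -0.62 (alisertib), all called, and of -1.02 with ND-646 (-1.27 without replicate 1).

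ATP5MC2 (NCBI gene 517, chromosome 12, 54026510 to 54071192) differed from both. It held 104, 121 and 103 CPM at day 0, 205, 94.5 and 95.2 CPM with ND-646 and 120.2, 109 and 99.9 CPM with TVB-3166, so that the TVB-3166 libraries lay within or next to the day-0 range. With doxorubicin it held 53.9, 66.8 and 44.99 CPM and with bleomycin 72.6, 82.4 and 61.1 CPM, below every day-0 library. The log2 fold change was 0.01 ± 0.10 with TVB-3166 (adjusted p = 0.925) and 0.26 ± 0.28 with ND-646 (adjusted p = 0.507; -0.20 without replicate 1, adjusted p = 0.143), against -0.97 ± 0.14 with doxorubicin (adjusted p = 0.000417), -0.61 with palbociclib, -0.59 with bleomycin and -0.47 with alisertib, all called.

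The sum of the 3 subunit c transcripts was 404.5 CPM at day 0. It was 268.6 with ND-646 (389.4 in replicate 1, 208.7 and 207.6 in the others) and 263.8 with TVB-3166. With bleomycin it was 188.6, with doxorubicin 185.6, with palbociclib 235.7 and with alisertib 262.2. ATP5MC2 made up 27.0% ± 1.9 of that sum at day 0 and 28.7% ± 1.8 in untreated day-7 cells (SD, n = 3). Its share was 47.9% ± 4.0 with ND-646 (45.3% to 52.5%), 41.7% ± 0.79 with TVB-3166 and 38.3% ± 5.6 with bleomycin (34.7% to 44.7%), each with all 3 libraries above all untreated ones. With doxorubicin, palbociclib and alisertib it was 29.6%, 30.3% and 30.2%. ATP5MC1 has 8 and ATP5MC2 has 5 named pseudogenes in the annotation, and the counting settings that decide where shared reads go are not given in the sources used here.

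**Figure D3:**
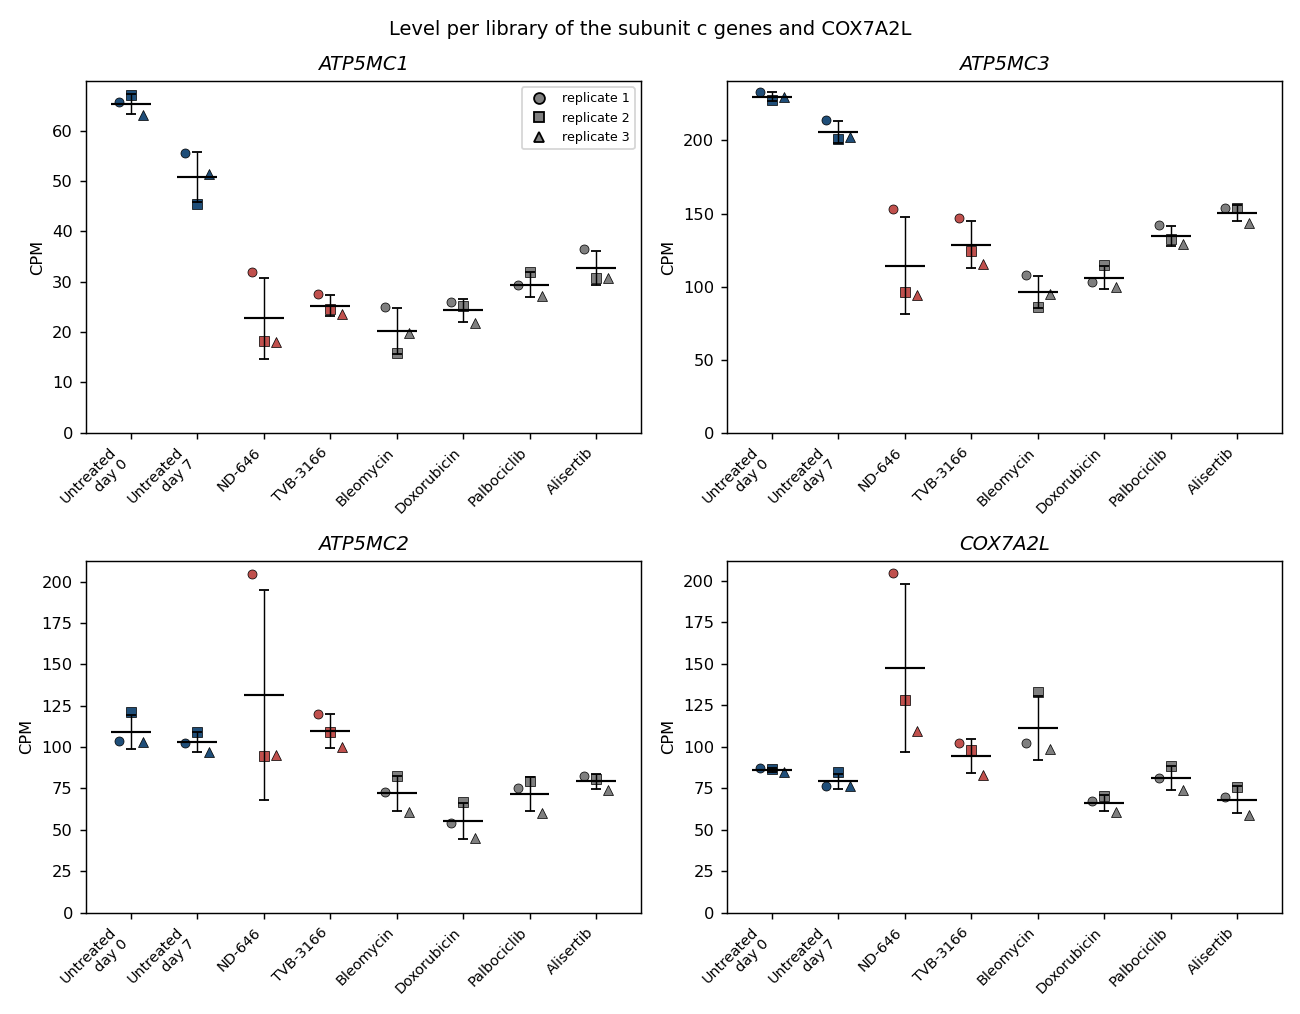
CPM of ATP5MC1, ATP5MC3, ATP5MC2 and COX7A2L in each library by group (points are replicates, the line is the mean, the bar 1 SD). ATP5MC1 and ATP5MC3 are below the untreated libraries in all 18 treated libraries, ATP5MC2 is not with TVB-3166, and COX7A2L is above them with ND-646 and bleomycin.

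The small Fo subunits e and f, coded by ATP5ME and ATP5MF, fell by 1.08 with doxorubicin and by 1.22 with bleomycin. ATP5MF overlaps on its own strand with ATP5MF-PTCD1, a readthrough into the neighbouring PTCD1, and the latter was called higher with bleomycin (1.21, adjusted p = 0.0438) and palbociclib (0.98, adjusted p = 0.0481). Its 3 libraries with ND-646 held 29.9, 8.94 and 0.491 CPM, so replicates of 1 group spanned its whole range, and counts split between overlapping genes are uncertain.

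A direct comparison of the 2 lipogenesis inhibitors, TVB-3166 against ND-646, called 0 of 83 members by edgeR (0.52% of all genes were higher and 0.198% lower), 2 had an unadjusted p under 0.05, and DESeq2 called 1. The median difference was -0.19. Of the 83 members, 24 had an interval that held a 2-fold difference, so the groups were not shown to be alike. Without ND-646 replicate 1, 9 members were higher with TVB-3166 and 0 lower (6.01% and 5% of all genes), and the median difference had the opposite sign, 0.24: UQCRC2 at 0.51, ATP5MC1 at 0.49, NDUFV1 at 0.48, ATP5MC3 and UQCR10 at 0.44, UQCRC1 at 0.43, COX7B and ATP5IF1 at 0.39 and NDUFA9 at 0.37. NDUFV1 and UQCR10 are named because these 9 were called.

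ND-646 and TVB-3166 together were compared with the 4 other inducers in 1 fit of their 18 libraries, without the untreated cells. Of 83 members, 36 were higher with the lipogenesis inhibitors and 1 was lower, where 26.1% of all genes were higher and 24% lower, and the median difference was 0.26 on the log2 scale. Without ND-646 replicate 1, 18 were higher and 4 lower (25.2% and 25.6% of all genes) and the median was 0.07. The share of members that was higher was then no longer above that of all genes. On total counts in place of TMM, 16 were higher and 5 lower, with a median of 0.083 for the members and -0.134 for all genes. The share of all genes called was not computed there. Cytosolic ribosomal protein genes were also higher, 67 of 83, and a median of 0.44, and their part in the members' values was not tested.

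The counts differed by complex, and the classes were not tested against each other. Higher were 17 of the 30 accessory and 0 of the 7 core subunits of complex I, 2 of 4 in complex II, 3 of 9 in complex III, 8 of 13 in complex IV and 6 of 19 in ATP synthase, against 26.1% of all genes. Without ND-646 replicate 1, 5 of 38 were higher in complex I, 1 of 4 in complex II and 1 of 9 in complex III. Complex IV then had 7 of 13 and ATP synthase 4 of 19, against 25.2% of all genes. Only in complex IV was the share of members then above that of all genes. ATP5MC2 was higher by 0.81 ± 0.14 (adjusted p = 0.000135; 0.57 without ND-646 replicate 1), COX8A by 0.67 ± 0.13 (adjusted p = 0.000284; 0.48 without) and COX7A2L by 0.57 ± 0.11 (adjusted p = 0.000423; 0.41 without). UQCRC2 was lower by 0.34 on the log2 scale (log2 difference -0.34 ± 0.06, adjusted p = 0.000137; -0.35 without). Members lower without ND-646 replicate 1 were UQCRC2, ATP5MC1 (-0.29), NDUFA9 (-0.28) and NDUFV1 (-0.17), the last named after its value was seen.

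**Figure D4:**
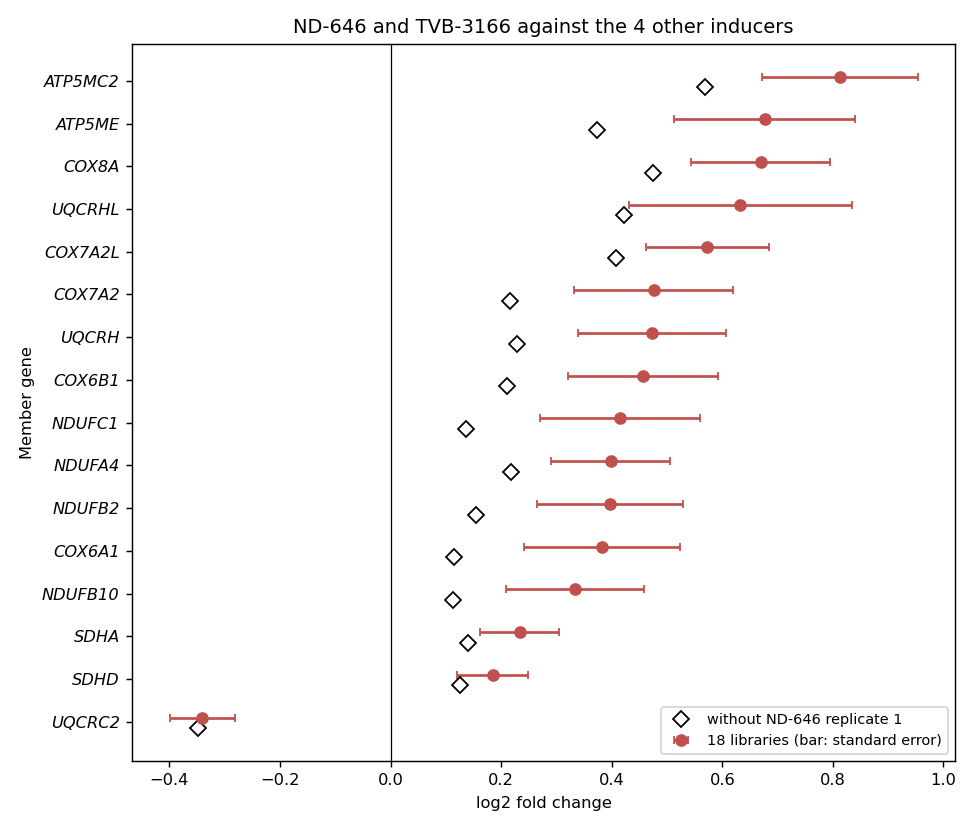
log2 difference of the named members called between ND-646 with TVB-3166 and the 4 other inducers; filled points use 18 libraries with 1 standard error, open diamonds leave out ND-646 replicate 1. From ATP5MC2 at 0.81 to SDHD at 0.18 all but UQCRC2 (-0.34) are above 0, and the diamonds of those 15 lie nearer 0.

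The members are short transcripts, with a median of 750 bases of canonical transcript against 3366 for the protein-coding genes of the table. Across 80 members, Spearman's rho between length and log2 fold change, given as a description over genes that share the same libraries, was 0.47 with alisertib, 0.44 with palbociclib, 0.43 with doxorubicin, 0.38 with bleomycin, 0.24 with TVB-3166, -0.14 with ND-646 and 0.47 in untreated day-7 cells. Against untreated day 7 it was 0.17 with alisertib, 0.25 with palbociclib, 0.10 with doxorubicin, 0.11 with bleomycin, -0.04 with TVB-3166 and -0.35 with ND-646. Shorter members thus tended to have lower values against day 0 in each group but ND-646. For the other drugs the relation was weaker or of opposite sign against day 7, while with ND-646 it was more negative. Between the lipogenesis inhibitors and the other inducers rho was -0.46, so shorter members tended to be higher with the inhibitors. For TVB-3166 against ND-646 it was 0.46. Both fits hold ND-646 replicate 1. The part of transcript length in the falls and in these differences was not tested.

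Genes that build these complexes were taken from lists. Of 16 assembly factors of complex I, 8 were lower with TVB-3166, 9 with bleomycin and with doxorubicin, 7 with palbociclib, 4 with alisertib and 6 with ND-646, and of 23 for complex IV, 9, 12, 12, 13, 10 and 2 in that order. Of 6 factors of complex III 4, 6, 5, 3, 1 and 4 were lower in the same order, and of 4 for ATP synthase 1, 1, 3, 3, 0 and 1. Without ND-646 replicate 1 the ND-646 counts were 9 (complex I), 10 (complex IV), 5 (complex III) and 3 (ATP synthase). Of all genes, 27.7% were lower with TVB-3166, 25.3% with bleomycin, 24.8% with doxorubicin and 27.2% with palbociclib. The share was 19.6% with alisertib and 18.8% with ND-646 (27.8% without replicate 1). Counts such as 4 of 16 (complex I, alisertib) and 1 of 4 (ATP synthase, TVB-3166) lie near those shares. SDHAF4, which helps to mature the flavoprotein of complex II, went the other way, higher by 1.72 ± 0.38 with ND-646 (adjusted p = 0.00738; 1.62 without replicate 1), 1.86 ± 0.31 with TVB-3166 (adjusted p = 0.000429), 1.65 with bleomycin, 1.29 with palbociclib and 1.03 with alisertib. In untreated day-7 cells it was at 1.07 (adjusted p = 0.124), and against those cells it was called only with TVB-3166 (0.80, adjusted p = 0.0209). SDHAF4 is named because it was the factor of the complex II list called higher, after its values were seen. Of the 4 factors on that list, 1 was higher and 0 lower with ND-646 without its replicate 1 (27.1% and 27.8% of all genes). CYCS, cytochrome c itself, fell by 1.01 with ND-646 (by 0.93 without replicate 1), 0.86 with TVB-3166 and 0.79 with bleomycin, and CYC1, cytochrome c1 of complex III, by 0.74 (0.86 without replicate 1), 0.48 and 0.70.

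Calls for transcripts of mitochondrial DNA depended on the untreated reference. Of 13 mRNAs, 0 were called with TVB-3166, doxorubicin and alisertib, 1 was higher with ND-646 (COX2, 2.08), 2 were higher with bleomycin (COX2, 1.92, and ND6, 1.70) and 1 was lower with palbociclib (ND3, -1.78). Their day-0 level was uneven, with the share in replicate 1 far above that of the other libraries, and the median log2 fold change was -1.14 in untreated day-7 cells with 0 called. Against untreated day 7, 11 were higher with ND-646 (median 1.67), 11 with TVB-3166 (1.02), 13 with bleomycin (1.72), 12 with doxorubicin (1.32), 4 with palbociclib (0.37) and 0 with alisertib (0.58), and 0 were lower, so that the direction there was opposite to that of most nuclear members. Of all genes, 17.2%, 25.4%, 22.4%, 21.9%, 22% and 9.55% were higher against day 7 in that order. All RNA of mitochondrial DNA took 9.76% ± 2.05 of counts with bleomycin and 3.94% ± 4.17 at day 0.

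Of 12 genes for regulators of respiratory genes, 3 were higher and 4 lower with TVB-3166, where 27.4% of all genes were higher and 27.7% lower. With ND-646 it was 2 and 2 (19.1% and 18.8% of all genes), and 3 and 4 without replicate 1 (27.1% and 27.8%). These counts lay near the shares of all genes. NRF1 was 23.1, 23.3 and 19.2 CPM at day 0, 53.5, 30.9 and 39.2 CPM with ND-646 and 16.7, 15.9 and 16.1 CPM with palbociclib. It was higher with ND-646 (0.90, adjusted p = 0.00927; 0.68 without replicate 1) and TVB-3166 (0.53, adjusted p = 0.00239) and lower with palbociclib (-0.43, adjusted p = 0.0103), and it was higher by 0.93 with the lipogenesis inhibitors than with the other inducers (adjusted p = 2.11e-07). ESRRA, a nuclear receptor that drives respiratory genes, was higher with ND-646 (0.69), bleomycin (0.61) and TVB-3166 (0.35), while TFAM, which packs and transcribes mitochondrial DNA, was lower with the same 3 drugs (-0.66, -0.55 and -0.54). Without ND-646 replicate 1, ESRRA was at 0.59 and TFAM at -0.53 with ND-646, both called. MYC was lower with ND-646 (-0.58 with and without replicate 1) and TVB-3166 (-0.65) and higher with doxorubicin (0.46) and palbociclib (0.58). GABPA was not called in any of the 6 comparisons, with log2 fold changes from 0.05 to 0.29, and PPARGC1A was not analysed here.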

How the data were processed

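RNA of 24 SKBR3 libraries was sequenced by the authors. Per the labels the kit was TruSeq Stranded mRNA, while the study's methods name a total RNA kit. The submitters' processing notes name bcl2fastq, HISAT2, StringTie, DESeq2 and GRCh37, and the counting settings are not given in the sources used here. The authors deposited whole-number counts per gene, not normalized, of 29405121 to 44316330 per library. The test was the quasi-likelihood test of edgeR 4.0.16 (R 4.3.3, TMM, filterByExpr, pairwise fits, Benjamini-Hochberg over all genes, adjusted p under 0.05). Fold changes use edgeR's default prior count, and log2 CPM, used to check whether libraries overlap, a prior count of 2. DESeq2 1.42.0, total-count scaling, other filters, leaving out libraries, a replicate block and other references were alternatives. Members, gene lists and motifs were chosen with earlier results of these data known. The 34 named members follow a fixed rule. Part of that rule takes the largest changes, and fold changes of at least 2, in these same comparisons, so such members were selected on their values. Members outside the rule are said to be chosen after their values were seen. The replicate numbers paired ND-646 with TVB-3166 (correlations of deviations 0.392, 0.224 and 0.305) and untreated day 7 with bleomycin, doxorubicin and alisertib (lowest 0.104), but not day 0 with any group. Some but not all pairs among the 6 drugs were over 0.1 in each replicate. On simulated data with 200 changed genes, 76% of 2-fold changes were recovered for TVB-3166 against day 0 and 29% for ND-646, with 0 in the wrong direction. Of 1.5-fold changes, nearer the members' medians, 61% and 3% were recovered. False calls made up 8.05% and 11.1% of the calls. Far more genes were called in the data than were changed in the simulation, so these rates may not carry over.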

Additional observations from a re-analysis of the deposited data

Results flagged for a closer look

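The difference between the lipogenesis inhibitors and the 4 other inducers was tested directly in 1 fit. With ND-646 and TVB-3166, 36 of 83 members were higher, where 26.1% of all genes were higher and 24% lower. The fit that left out ND-646 replicate 1 had 18 members higher and 4 lower (25.2% and 25.6% of all genes). Named members that differed were ATP5MC2 at 0.81 on the log2 scale, ATP5ME at 0.68, COX8A at 0.67, UQCRHL at 0.63, COX7A2L at 0.57, COX7A2 at 0.48, UQCRH at 0.47, COX6B1 at 0.46, NDUFC1 at 0.41, NDUFA4 at 0.40, NDUFB2 at 0.40, COX6A1 at 0.38, NDUFB10 at 0.33, SDHA at 0.23, SDHD at 0.18 and UQCRC2 at -0.34. Without ND-646 replicate 1, 10 of these 16 still passed in edgeR's quasi-likelihood test. The part of that library's ribosomal transcripts in the differences was not tested.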

How the results depend on the processing

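Of 174 called values of named members, 0 changed sign under any alternative and 49 were lost in at least 1. Calls were lost 86 times over the many fits that left out 1 library. Among settings that left out none, the untreated day-7 reference lost most, 31, and the fit of all 24 libraries lost 20. With the study's thresholds, a fold change of 2 and an unadjusted p under 0.05, members called were 4 with ND-646, 2 with TVB-3166, 8 with bleomycin, 9 with doxorubicin, 9 with palbociclib, 3 with alisertib and 0 between the lipogenesis inhibitors and the other inducers. For total counts and the fit of all 24 libraries the share of all genes called was not computed. Nor was it for most fits that left out 1 library. DESeq2 and the replicate block have that share only for untreated day-7 against day-0 cells. Counts without it show how calls moved with the setting and cannot be set against all genes. On total counts 28 were called with ND-646 and 21 between the inhibitor classes. A fit of all 24 libraries called 33 with ND-646 and 3 between TVB-3166 and ND-646. DESeq2 called 13 in untreated day-7 cells and 1 between TVB-3166 and ND-646. Against untreated day 7, 7 were called with ND-646, 39 with TVB-3166 and 47 with alisertib. The replicate block, for numbers that the pairing check does not bear out against day 0, called 17 with ND-646 and 12 in untreated day-7 cells; between TVB-3166 and ND-646, where the numbers pair, it left 0, and between the lipogenesis inhibitors and the other inducers, where some pairs of groups pair, it called 41 higher and 1 lower. Leaving out 1 library gave 4 to 73 calls with ND-646 (73 without its replicate 1), 48 to 64 with TVB-3166, 59 to 72 with bleomycin, 74 to 79 with doxorubicin, 70 to 73 with palbociclib, 63 to 74 with alisertib, 0 to 9 between TVB-3166 and ND-646, and 20 to 52 between the classes (20 without TVB-3166 replicate 1, 22 without ND-646 replicate 1). The fall in the members' share of counts was 6.63% in untreated day-7 cells and 31.2% with bleomycin when mitochondrial DNA was left out, and 2.80% to 7.20% in day-7 cells with 1 library left out. TVB-3166 alone against the other inducers, an alternative chosen after seeing the data, gave 31 members called, all higher. The share of all genes called in that fit was not computed, so the count cannot be set against all genes. The median log2 difference was 0.199 for the members and 0.008 for all genes. Lists and regulators without ND-646 replicate 1 were likewise added after seeing the data. Depth limits the readthrough genes, COX7B2 and UQCRHL most.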

Other observations

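Other mitochondrial lists were lower alongside the members. Of 78 mitochondrial ribosomal protein genes, 62 were lower with TVB-3166, 64 with bleomycin, 69 with doxorubicin, 63 with palbociclib, 55 with alisertib and 28 with ND-646 (68 without its replicate 1). Of 13 genes of the TCA cycle, 9, 9, 10, 11, 8 and 8 were lower in that order, and of 11 genes for coenzyme Q synthesis 6, 9, 8, 7, 5 and 6. Without ND-646 replicate 1 the ND-646 counts of these lists were 10 and 8. Cytosolic ribosomal protein genes differed between drugs, with 73 of 83 lower with doxorubicin, 54 with alisertib, 36 with palbociclib, 19 with TVB-3166, 10 with bleomycin and 1 with ND-646 (10 without its replicate 1). For each of these lists the share of all genes that was lower was 27.7% with TVB-3166, 25.3% with bleomycin and 24.8% with doxorubicin. It was 27.2% with palbociclib, 19.6% with alisertib and 18.8% with ND-646 (27.8% without its replicate 1). In untreated day-7 cells 0 genes of the ribosomal lists were called by edgeR.

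ACTA1, a skeletal muscle actin gene, was higher than at day 0 with doxorubicin (3.49), bleomycin (3.19), ND-646 (3.14), TVB-3166 (2.14) and palbociclib (1.28 on the log2 scale), at no more than 13.2 CPM in any library. COL1A1, a fibroblast collagen gene and the other marker of other cells in the table, was lower with doxorubicin (-0.68), palbociclib (-0.54) and bleomycin (-0.49).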
